A study of Rattus norvegicus with 4 samples.

Results

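The subject here is a group of 8 genes of the MHC class I presentation pathway (B2m, Tap1, Tap2, Tapbp, Psmb8, Psmb9, RT1-A2 and RT1-CE10), taken by symbol from the 32623 genes of a droplet sequencing data set of rat hippocampus. Each symbol occurred once in the gene list, and their UMIs (unique molecular identifiers, one per captured transcript end) ranged from 528 for Psmb8 to 1134517 for B2m over all barcodes. The 4 titled samples, NC (negative control), MCAO, DEPR and MD, were hippocampus of wild type Sprague Dawley rats. MCAO is the unilateral occlusion of the middle cerebral artery with a filament, a stroke model, and DEPR and MD are both described as chronic stress stimulation, with MD not spelled out. The design text, which has no untreated arm, gives male adults of 10 to 12 months in 2 groups of 10, all with MCAO and 1 group then stressed, with 5 hippocampi per group sequenced. How many animals entered each titled sample is not stated in the labels.

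MHC class I molecules show peptides from inside the cell to CD8 T cells and natural killer cells. The proteasome cuts proteins into peptides, and in its immunoproteasome form the inducible subunits Psmb8, Psmb9 and Psmb10 replace the constitutive Psmb5, Psmb6 and Psmb7. The transporter formed by Tap1 and Tap2 carries peptides into the endoplasmic reticulum, tapasin (Tapbp) bridges the transporter and the heavy chain, and B2m is the light chain that every class I heavy chain needs at the cell surface. In the rat the heavy chains are encoded by the many RT1 genes. RT1-A genes are classical, and RT1-CE genes belong to a separate class I region. Interferon gamma raises most of these genes in many tissues, and neurons and myelin-forming cells of healthy brain are known for low class I.

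The deposited matrix pooled all samples, and its barcodes carried 4 suffixes, here sets 1 to 4, that no label or file used here ties to a titled sample. Values are therefore given set by set, with no group, mean or test over sets, and no p-value was computed. Intervals cover counting error only, not the spread between animals, and UMIs from free RNA are part of every count. Sets held 7291, 8959, 5884 and 9504 barcodes with 43640627, 46669201, 36242408 and 54295520 UMIs, and 96 of the 31542 distinct barcode sequences occurred in more than 1 set. After filtering, 27937 cells formed 38 clusters, of which 25962 cells (92.9%) fell into 10 types named from marker genes. They were 12555 microglia-like, 7818 oligodendrocyte-like, 3201 endothelial-like, 892 T cell-like, 473 pericyte-like, 386 smooth muscle-like, 270 border macrophage-like, 157 ependymal-like, 124 B cell-like and 86 oligodendrocyte precursor-like cells. No cluster was named neuron-like or astrocyte-like, so the principal cells of the hippocampus were not analysed here. The ependymal-like cluster also passed the astrocyte marker list. The 8 neuron markers summed to 54.6 to 266 CPM (counts per 1e+06 UMIs) per set, and 1 to 3 cells per set carried at least 3 of them. The 10 astrocyte markers summed to 191 to 268 CPM, and 64 to 114 cells per set carried at least 3 of those. The sets stood apart within the 3 large types, where most clusters held nearly all their cells from sets 1 and 2 (clusters 0, 1 and 2 of microglia-like, 5 and 9 of oligodendrocyte-like and 6 of endothelial-like cells) or from sets 3 and 4 (15, 16, 17 and 22, 10 and 11, and 36 and 37).

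The start-site windows of most of the genes carry letters of the kind bound by interferon regulatory factors or NF-kB, and they are given as a description only. Any link of these letters to the levels below was not tested. RefSeq windows of the build GRCr8, from 250 bases before to 50 bases after each gene's start, were found for all 8 members, B2m on chromosome 3 and the other 7 on chromosome 20. GAAANNGAA was found on either strand in 9.71% of 33469 such windows and GAANNGAAA in 8.54%, and these patterns can overlap each other. At least 1 of them lay in 16.8% of all windows and in 7 of 8 members, all but Psmb9. GGGNNTTNC lay in 15.3% of all windows and in 5 of 8 members, and both kinds lay in 2.81% of all windows and in the same 5 members. These are B2m at chr3:129549080-129549379 (plus strand), Tap1 at chr20:4668494-4668793 (minus strand), Tapbp at chr20:4967828-4968127 (minus strand), RT1-A2 at chr20:4872621-4872920 (plus strand) and RT1-CE10 at chr20:3384930-3385229 (minus strand). Capitals mark the matches, and each sequence reads from 5′ to 3′ along the gene.
B2m: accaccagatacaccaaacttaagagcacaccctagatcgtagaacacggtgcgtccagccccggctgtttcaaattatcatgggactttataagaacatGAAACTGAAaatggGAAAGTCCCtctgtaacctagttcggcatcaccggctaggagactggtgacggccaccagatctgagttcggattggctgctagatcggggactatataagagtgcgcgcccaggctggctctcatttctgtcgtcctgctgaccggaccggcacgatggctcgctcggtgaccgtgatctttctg
Tap1: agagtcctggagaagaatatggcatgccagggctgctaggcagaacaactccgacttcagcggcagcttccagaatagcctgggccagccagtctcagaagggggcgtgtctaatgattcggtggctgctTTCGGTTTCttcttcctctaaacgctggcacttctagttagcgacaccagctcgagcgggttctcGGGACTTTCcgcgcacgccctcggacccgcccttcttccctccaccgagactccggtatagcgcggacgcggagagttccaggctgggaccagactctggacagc
Tapbp: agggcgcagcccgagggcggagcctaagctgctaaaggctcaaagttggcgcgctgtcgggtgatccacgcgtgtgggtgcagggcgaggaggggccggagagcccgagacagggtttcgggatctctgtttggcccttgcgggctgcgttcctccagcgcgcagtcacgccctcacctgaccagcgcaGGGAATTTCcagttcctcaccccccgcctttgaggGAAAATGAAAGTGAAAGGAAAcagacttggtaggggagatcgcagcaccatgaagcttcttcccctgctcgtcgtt
RT1-A2: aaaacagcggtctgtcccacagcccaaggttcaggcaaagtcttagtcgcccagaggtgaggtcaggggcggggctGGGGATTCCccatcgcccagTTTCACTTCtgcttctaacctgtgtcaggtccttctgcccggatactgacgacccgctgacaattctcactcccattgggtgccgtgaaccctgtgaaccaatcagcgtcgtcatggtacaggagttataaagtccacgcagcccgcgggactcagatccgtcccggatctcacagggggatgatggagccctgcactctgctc
RT1-CE10: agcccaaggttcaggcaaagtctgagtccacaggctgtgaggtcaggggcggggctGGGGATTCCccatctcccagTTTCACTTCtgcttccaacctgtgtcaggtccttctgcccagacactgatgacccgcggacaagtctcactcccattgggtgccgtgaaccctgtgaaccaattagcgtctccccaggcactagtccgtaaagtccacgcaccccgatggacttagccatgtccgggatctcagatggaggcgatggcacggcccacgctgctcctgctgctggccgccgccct
In B2m the GAAANNGAA match starts at position -150 and the GGGNNTTNC match at -136 from the start site, and in Tap1 they start at -120 and -55. The windows of RT1-A2 and RT1-CE10 matched at 233 of 279 aligned bases (83.5%), and their GAANNGAAA matches are the same letters, TTTCACTTC on the strand shown. The windows of Tap1 and Psmb9, which are neighbours on opposite strands, overlap by 44 bases. A match of letters is a description of the window and says nothing about binding in these cells.

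Across the 10 cell types the sum of the members was high in T cell-like, endothelial-like and microglia-like cells and in ependymal-like cells of sets 1 to 3. It was lowest in oligodendrocyte-like and precursor-like cells. This sum is mostly B2m, and single members did not all follow its order. Tap1 and Psmb9 were higher in B cell-like than in microglia-like cells in every set. The 8 members together made up 2.08, 2.15, 1.53 and 1.72% of all UMIs in T cell-like cells of sets 1 to 4, 1.87, 1.93, 1.32 and 1.40% in endothelial-like and 1.75, 1.69, 1.10 and 1.13% in microglia-like cells. Ependymal-like cells had 2.14, 2.10, 1.96 and 0.678%, in set 4 below the B cell-like (1.09%) and border macrophage-like (1.31%) values of that set, of which the second was also above the microglia-like value. In oligodendrocyte-like cells they made up 0.114, 0.131, 0.0462 and 0.0520%. The oligodendrocyte-like value was the lowest of these in every set. Sets 1 and 2 were above sets 3 and 4 in each of these types except border macrophage-like cells. Those ran the other way, at 0.6645, 0.652, 0.836 and 1.31%. B2m was the larger part of the sum in every type and set, 85.2% to 90.9% of it in smooth muscle-like cells and 50.5% to 64.9% in microglia-like cells. Levels of different genes are compared as 3' UMI counts, which tag 1 end of a transcript and were not divided by length. How fully the 3' end of each gene was annotated and captured was not checked. Comparisons between different genes are uncertain to that extent.

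**Figure D1:**
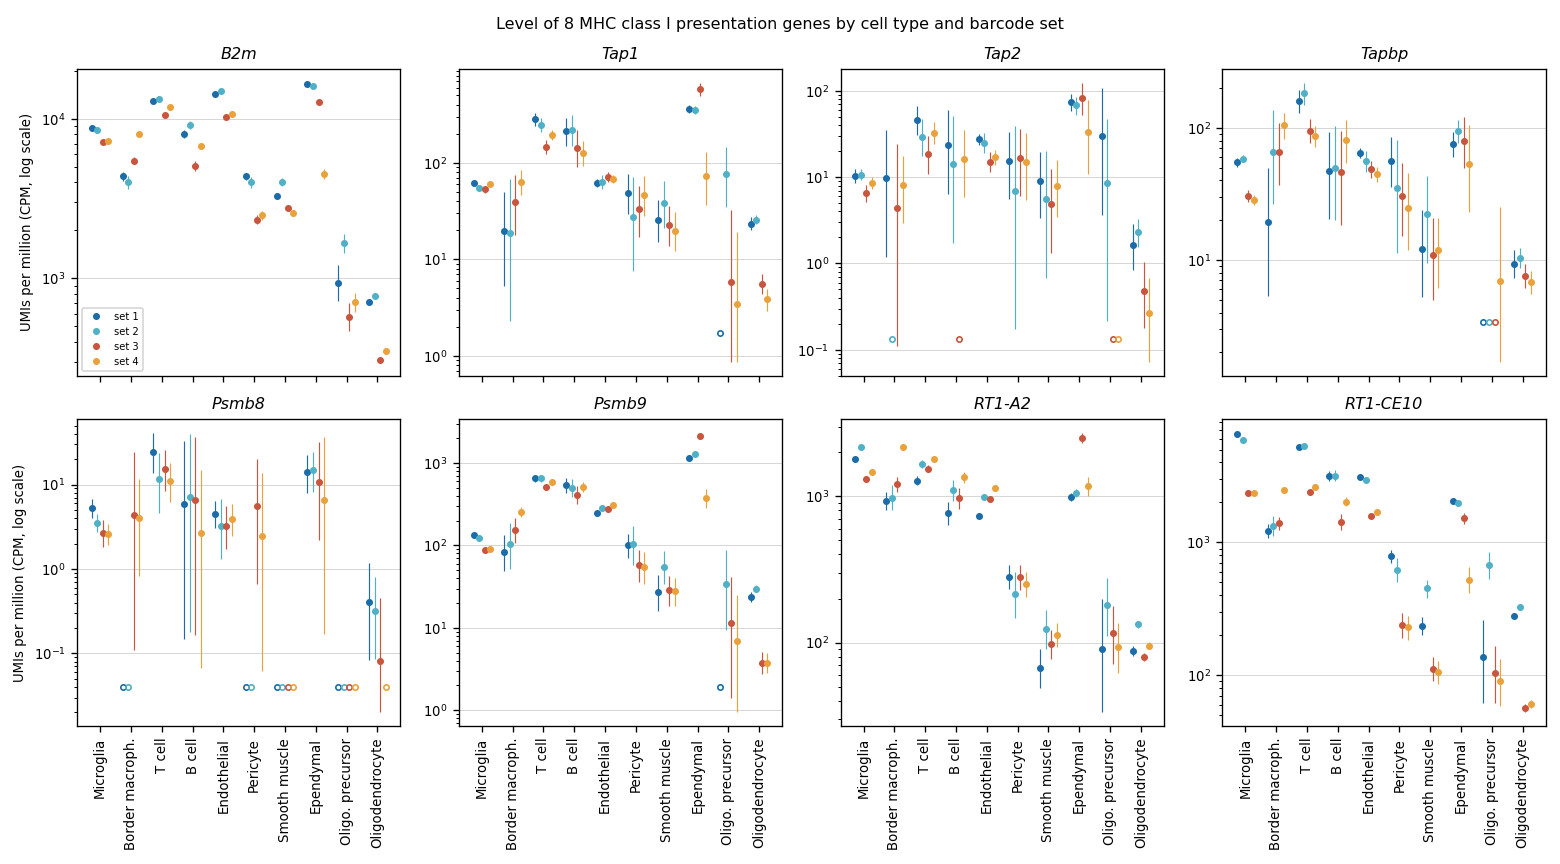
Level of each of the 8 genes (CPM, log scale) in 10 cell types, 1 point per barcode set with its exact Poisson 95% interval and open circles for sets with 0 UMIs. B2m ran from 309 CPM in oligodendrocyte-like cells of set 3 to 16662 in ependymal-like cells of set 1.

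The light chain B2m, the most abundant member, stood at 13054, 13398, 10629.9 and 11847 CPM in T cell-like cells of sets 1 to 4. In endothelial-like cells it was 14419, 14965, 10254 and 10723 CPM, and in microglia-like cells 8824, 8538, 7131 and 7318. The T cell-like and endothelial-like ranges overlapped, and both lay above the whole microglia-like range. Ependymal-like cells had 16662, 16185, 12707 and 4537 CPM, high in sets 1 to 3 and low in set 4. B cell-like cells had 8072, 9149, 5080.4 and 6794 CPM and border macrophage-like cells 4367, 4019, 5486 and 8005, ranges that overlapped each other and that of microglia-like cells. Pericyte-like cells had 4362, 4004, 2334 and 2484 CPM, smooth muscle-like cells 3299.9, 4024, 2782 and 2573, precursor-like cells 939, 1659, 574 and 706 and oligodendrocyte-like cells 707, 778, 309 and 349. The oligodendrocyte-like value was the lowest of the 10 types in each set.

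Of the heavy chains, RT1-CE10 stood at 6601, 5952, 2349.6 and 2349 CPM in microglia-like and 5257, 5333, 2379 and 2617 in T cell-like cells. Sets 1 and 2 were high and sets 3 and 4 low in both, and the 2 ranges overlapped. Border macrophage-like cells, with 1219.7, 1330.3, 1398 and 2477 CPM, were above microglia-like cells in set 4. RT1-A2 stood at 1793, 2176, 1321 and 1458 CPM in microglia-like, 927, 981, 1214 and 2162 in border macrophage-like and 1278, 1661, 1546 and 1806 in T cell-like cells, again with overlapping ranges. Smooth muscle-like cells had little of either, 235, 451, 112 and 105 CPM of RT1-CE10 and 66.8, 124, 97.8 and 113 of RT1-A2, although every set of them had more B2m than any set of oligodendrocyte-like cells. RT1-CE10 per B2m UMI was 0.0713, 0.112, 0.0403 and 0.0409 in smooth muscle-like cells against 0.399, 0.419, 0.184 and 0.174 in oligodendrocyte-like and 0.748, 0.697, 0.329 and 0.321 in microglia-like cells. RT1 genes are close paralogs, so the counting could move reads between them or leave out reads that matched several, and every value for a single RT1 gene is uncertain to that extent.

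The transporter and loading genes were far less abundant. Tap1 was 360.1, 353, 579.9 and 73.2 CPM in ependymal-like, 283, 246, 147 and 194 in T cell-like and 212, 222, 144 and 126 in B cell-like cells, which overlapped over the sets, and 62.4, 63.7, 72.1 and 68.3 in endothelial-like and 61.6, 54.3, 53.5 and 59.8 in microglia-like cells. Every T cell-like and B cell-like set was above every endothelial-like and microglia-like set. Tap2, its partner subunit, was 73.9, 67.9, 82.8 and 33 CPM in ependymal-like, 46.1, 29.6, 18.6 and 32.9 in T cell-like, 27.4, 25.1, 15.1 and 16.9 in endothelial-like and 10.3, 10.7, 6.56 and 8.66 in microglia-like cells. In microglia-like cells Tap1 had 5.97, 5.07, 8.14 and 6.91 UMIs per Tap2 UMI, against 2.27, 2.54, 4.77 and 4.03 in endothelial-like cells. Tapasin was 159.6, 182, 95.2 and 86.4 CPM in T cell-like, 64.5, 55.8, 48.4 and 44.6 in endothelial-like and 55.0, 58.3, 30.6 and 28.5 in microglia-like cells, and the T cell-like sets lay above both.

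The immunoproteasome subunit Psmb9 was 1155, 1284, 2129 and 379 CPM in ependymal-like cells, the highest of the 10 types in sets 1 to 3, while set 4 rests on 12 cells. It was 653, 656, 514 and 582 CPM in T cell-like and 542, 501, 414 and 513 in B cell-like cells, followed by endothelial-like cells with 247, 282, 280.1 and 309 and microglia-like cells with 133, 125, 88.9 and 90.8. These last 2 ranges did not overlap. Psmb8 was rare, from 11 to 24.7 CPM in T cell-like and 2.57 to 5.24 in microglia-like cells to 0 of 2856445 UMIs in smooth muscle-like cells, which allows up to 1.05 CPM by a count of 3. Neighbours in its order from T cell-like down to pericyte-like cells did not differ beyond their counting intervals. Psmb9 over its constitutive counterpart Psmb6 was 6.62, 6.14, 5.60 and 7.26 in T cell-like, 1.90, 2.19, 2.14 and 2.51 in endothelial-like and 1.93, 1.81, 1.25 and 1.42 in microglia-like cells. In oligodendrocyte-like cells it was 0.140, 0.167, 0.0198 and 0.0195, below 1 in every set, with sets 1 and 2 well above sets 3 and 4. Psmb10 over Psmb7 was 2.29, 2.26, 2.04 and 1.94 in endothelial-like, 1.93, 1.77, 1.62 and 1.84 in microglia-like and 0.583, 0.597, 0.330 and 0.276 in oligodendrocyte-like cells, lowest in the last in each set. In T cell-like cells Psmb10 over Psmb7 was 0.983, 1.10, 3.67 and 3.28, and there sets 1 and 2 were the low ones. The remaining pair, Psmb8 over Psmb5, was below 1 in every set of every type. It was 0.139, 0.0673, 0.0993 and 0.0751 in T cell-like and 0.0227, 0.0173, 0.0155 and 0.0199 in endothelial-like cells. In microglia-like cells it was 0.0503, 0.0332, 0.0273 and 0.0291. Whether the 3' end of Psmb8 was counted as fully as those of Psmb5 and Psmb9 was not tested.

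**Figure D2:**
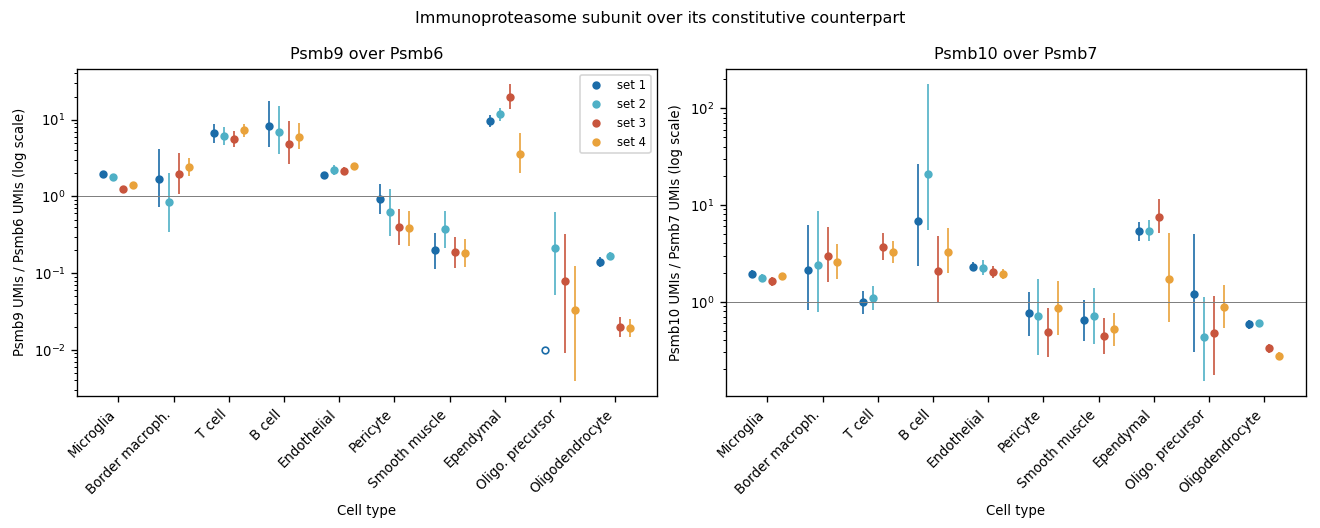
UMIs of an immunoproteasome subunit per UMI of the constitutive subunit it replaces (log scale), by cell type and barcode set with exact 95% intervals and an open circle where the numerator was 0. Psmb9 over Psmb6 was above 1 in every set of microglia-like, T cell-like, B cell-like, endothelial-like and ependymal-like cells and below 1 in every set of oligodendrocyte-like cells. Psmb8 over Psmb5, not drawn, was below 1 in every set of every type.

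Each type was compared with all other named cells of the same set, and a gene was called higher or lower when its ratio was at least 2 or at most 0.5 in all 4 sets with an exact 95% interval that left out 1 in each. Of 12297 genes with at least 20 UMIs in every set, all 8 members among them, 25.9% were called lower in oligodendrocyte-like cells, and so were 8 of 8 members. Their median log2 ratio was -4.11, or -3.95 with the set that had 0 Psmb8 UMIs placed at a count of 3, beside 0.00 over all genes tested. RT1-CE10 had a median log2 ratio of -4.61 over the sets (range over the sets -5.13 to -4.02), B2m -4.21 (-4.64 to -3.61), RT1-A2 -3.88 (-3.90 to -3.82) and Psmb9 -4.37 (-5.58 to -2.80). Tapbp, at -2.50, was the least low of the 8. Against microglia-like cells alone 8 of 8 members were again lower, where 18.9% of genes were.

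**Figure D3:**
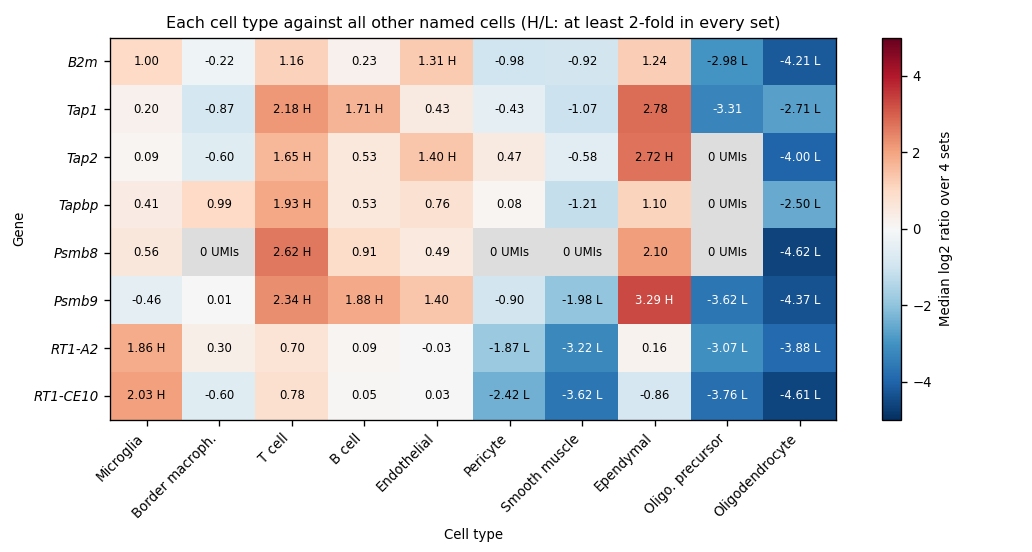
Median over the 4 sets of the log2 ratio of each gene's level in a cell type to its level in all other named cells (colour scale and printed values), with H or L where the ratio was at least 2-fold higher or lower in every set and grey where at least 2 of the 4 sets had 0 UMIs. All 8 genes are L in oligodendrocyte-like cells, and 5 are H in T cell-like cells.

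Oligodendrocyte-like cells still carried class I UMIs, and how many depended on the set. RT1-CE10 was 282, 326, 56.9 and 60.9 CPM in sets 1 to 4, Tap1 23.4, 25.7, 5.63 and 3.85 and Psmb9 23.7, 29.9, 3.78 and 3.78. Sets 1 and 2 were above sets 3 and 4 in all of these with no overlap of intervals. The highest set was above the lowest 7.90-fold (95% interval 5.82 to 10.9) for Psmb9, 6.69-fold (95% interval 5.04 to 9.0) for Tap1, 5.73-fold (95% interval 5.29 to 6.22) for RT1-CE10 and 2.52-fold (95% interval 2.43 to 2.62) for B2m. Thus 4 of 6 members with at least 50 UMIs over the 2 sets lay at least 2-fold apart, where 9.1% of all genes measured so did. RT1-A2, at 88.1, 133, 79.5 and 95.4 CPM, and Tapbp, at 9.40, 10.4, 7.56 and 6.77, did not. Among the clusters of these cells, cluster 9 (687 cells, of which 224 and 456 came from sets 1 and 2) had the most Psmb9 and Tap1, at 62.9 and 46.9 CPM. Cluster 5, also nearly all from those sets, had 14.2 and 17.7 CPM, and cluster 10, from sets 3 and 4, had 3.18 and 3.01.

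As a measure of microglial RNA in oligodendrocyte-like cells, the 11 microglia markers (10 of them in sets 1 and 2, where 1 was below 20 CPM) stood at a median 1.62, 2.24, 0.926 and 1.11% of their microglia-like level in sets 1 to 4, and none was at 0. B2m stood at 8.01, 9.12, 4.33 and 4.77% of its microglia-like level, RT1-CE10 at 4.27, 5.47, 2.42 and 2.59% and Tap1 at 38.0, 47.4, 10.5 and 6.44%. The markers and these 3 genes were lower in sets 3 and 4. RT1-A2, at 4.91, 6.11, 6.02 and 6.55%, and Tapbp, at 17.1, 17.8, 24.7 and 23.8%, were not. All 8 members were above the marker level in each set, except Psmb8 with 0 UMIs in set 4. The part of microglial RNA in the difference between sets was not tested. Without cluster 3, the oligodendrocyte-like cluster with 7.49% of the microglia marker level, 8 members were still lower and 4 still 2-fold apart between sets.

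In microglia-like cells the heavy chains were the members called. RT1-CE10 had a median log2 ratio of 2.03 (1.79 to 2.62) and RT1-A2 of 1.86 (1.5 to 2.59) against all other named cells, and these 2 of 8 members were called higher, where 9.34% of genes were. The median of all genes tested was -0.69 here and that of the members 0.48. With TMM scaling, which moved the all-gene median to -0.05, RT1-CE10, RT1-A2 and Psmb8 were called, and the share of higher among all genes called went from 22.6% to 40.3%. Both heavy chain calls rest on the oligodendrocyte-like cells in the reference. Without those cells the log2 ratios were 0.94 and 0.82, and neither was called. In that comparison Psmb9 (-1.83) and Tap2 (-1.43) were at least 2-fold lower in microglia-like cells in every set.

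Between sets, 3 of 8 members lay at least 2-fold apart in microglia-like cells, where 14.7% of genes did. RT1-CE10 differed 2.81-fold (95% interval 2.78 to 2.84) between sets 1 and 4, Tapbp 2.05-fold (95% interval 1.84 to 2.27) between sets 2 and 4, and Psmb8, with 207 UMIs in all, 2.04-fold (95% interval 1.38 to 3.02). B2m (1.24-fold), Tap1 (1.15-fold), Psmb9 (1.49-fold), Tap2 (1.63-fold) and RT1-A2 (1.65-fold) did not. Without set 4 there was 1 member apart, and without set 1, set 2 or the doubtful low-depth clusters 14 and 25 there were 2. Those values sum all 9 microglia-like clusters. Clusters 0, 1 and 2 held most of these cells in sets 1 and 2, and clusters 15, 16, 17 and 22 most in sets 3 and 4. Clusters 14 and 25 held cells of every set, 641, 480, 177 and 245 of them in cluster 25. Cluster 25 (1543 cells, median 1316 UMIs), led by Plac8 and Aif1, had 12784 CPM of B2m and 349 of Psmb9. Clusters 0, 1, 2, 15, 16, 17 and 22 had 6477 to 9305 and 74.9 to 134. Cluster 14 (642 cells, median 1316.5 UMIs) had the lowest values of the 9 clusters, 5355 and 46.5. In cluster 25 only 4 of 11 microglia markers were enriched, and Plac8 is on the monocyte marker list used here. Whether cluster 25 holds monocytes was not tested.

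Endothelial-like cells were high in the light chain B2m and in Tap2, while Tap1, the other transporter subunit, was not called (median log2 ratio 0.43, range -0.16 to 0.89). B2m (1.31, range 1.17 to 1.40) and Tap2 (1.40, 1.21 to 1.62) were called higher, 2 of 8 members, where 10.3% of genes were. Neither call held with the oligodendrocyte-like cells left out of the reference, where the values were 0.61 and 0.75, or with the stricter cell filter. Against microglia-like cells alone no member was called in either direction, where 19.3% of genes were higher and 11% lower. There B2m had ratios of 1.63, 1.75, 1.44 and 1.47, Tap2 of 2.66, 2.34, 2.30 and 1.96 and Psmb9 of 1.86, 2.27, 3.15 and 3.40 in sets 1 to 4, all above 1. RT1-A2 had ratios of 0.408, 0.451, 0.725 and 0.777 and RT1-CE10 of 0.469, 0.497, 0.678 and 0.716, all below 1. So endothelial-like cells had more light chain and less of these 2 heavy chains than microglia-like cells in each set.

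No endothelial-like member reached a 2-fold difference between sets, 0 of 7 measured, where 14.9% of genes did. RT1-CE10 came nearest, with 3095, 2955, 1592 and 1683 CPM and 1.94-fold (95% interval 1.89 to 2.0), and RT1-A2 ran the other way at 732, 982, 957 and 1133 CPM. With TMM scaling or the stricter filter 2 members passed, and with cells thinned to 1000 UMIs 1 did. Cluster 6 held most endothelial-like cells of sets 1 and 2, and cluster 36 most of sets 3 and 4. Their B2m was 14859 and 10252 CPM, their RT1-CE10 2993 and 1451, and their Psmb9 244 and 261.

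T cell-like cells had the most members called higher, 5 of 8, where 5.56% of genes were. The class joins cluster 32 (332 cells), led by T cell genes such as Cd40lg, Icos and Cd3g, and cluster 18 (560 cells), led by the cytotoxic genes Ccl5, Nkg7, Xcl1 and Gzmk with Cd8a. Both had 8 of 9 T cell markers enriched, but the 10 leading genes of cluster 18 held more NK cell than T cell markers, and NK cells cannot be told apart from cytotoxic T cells in it. Psmb9 was 578 CPM in cluster 18 and 609 in cluster 32, and Tap1 was 179.8 and 250.0 CPM. The members called in the class were Psmb8 (2.62; 2.14 to 3.14), Psmb9 (2.34; 1.93 to 2.63), Tap1 (2.18; 1.88 to 2.26), Tapbp (1.93; 1.82 to 2.16) and Tap2 (1.65; 1.55 to 2.25). The members' median was 1.79 beside -0.52 over all genes. The same 5 were higher than in microglia-like cells alone, where 8.18% of genes were, and there Psmb9 was 4.92, 5.26, 5.78 and 6.41 times its microglia-like level in sets 1 to 4. The Tap2 call, on 111 UMIs, ended without oligodendrocyte-like cells in the reference and in thinned cells, where 3 members were left. It also ended under the stricter filter and at the coarser clustering, where clusters of 544 and 583 cells with the leading genes of cluster 18 were named NK cell-like and the T cell-like class held 291 and 332 cells. B2m (1.16), RT1-CE10 (0.78) and RT1-A2 (0.70) did not reach 2-fold in every set. Between sets RT1-CE10 (2.24-fold) and Tapbp (2.11-fold) were apart, 2 of 6 measured, where 14.3% of genes were. B cell-like cells shared 2 of these calls, Psmb9 (1.88) and Tap1 (1.71), where 2.55% of genes were called. Both were also higher than in microglia-like cells, where 3.05% of genes were, and RT1-CE10 was the 1 of 5 members apart between sets, where 33.1% of genes were.

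Ependymal-like cells, which line the ventricles, had 62, 64, 19 and 12 cells in sets 1 to 4 at a median of 14482 UMIs, the deepest of the 10 types. Their cluster had 10 of 10 ependymal markers enriched. It also passed the astrocyte list, with the astrocyte marker Aqp4 among its 10 leading genes, and whether it holds astrocytes was not tested. Psmb9 (3.29; 1.80 to 4.54) and Tap2 (2.72; 2.11 to 3.90) were called higher, 2 of 8, where 10.5% of genes were. The same 2 were higher than in microglia-like cells alone, where 17.8% of genes were. Set 4 was lowest in 5 of the 6 measured members. Psmb9 in set 4, with a 95% interval of 287 to 491 CPM, was apart from the other 3 sets. RT1-A2 was instead lowest in set 1, at 988, 1051, 2510.4 and 1171 CPM. Summed ependymal markers were 6090.0, 6379.8, 7088 and 8229 CPM, highest in set 4. Between sets 5 of 6 members lay apart, where 20.3% of genes did.

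The other types added calls in the lower direction. In smooth muscle-like cells RT1-CE10 (-3.62), RT1-A2 (-3.22) and Psmb9 (-1.98) were lower, 3 of 8, where 7.71% of genes were. In pericyte-like cells RT1-CE10 (-2.42) and RT1-A2 (-1.87) were, 2 of 8, where 4.08% were. In precursor-like cells B2m (-2.98), RT1-A2 (-3.07), RT1-CE10 (-3.76) and Psmb9 were, 4 of 8, where 2.29% were, with Psmb9 at 0 UMIs in set 1. The precursor-like cluster had 4 of 7 precursor markers enriched but carried oligodendrocyte markers at a median 97.5, 75.4, 85.1 and 80.4% of their oligodendrocyte-like level, and 31 of its 86 cells (36.0%) passed the marker gate per cell, so its low values and those of oligodendrocyte-like cells cannot be told apart here. Against microglia-like cells alone 5 members were lower in smooth muscle-like cells, where 8.65% of genes were, 3 in pericyte-like cells, where 5.43% were, and 4 in precursor-like cells, where 4.2% were. RT1-CE10 was the only member apart between sets in smooth muscle-like (4.29-fold, 1 of 3 measured, where 11.6% of genes were) and pericyte-like cells (3.43-fold, 1 of 3, where 17.5% were). In precursor-like cells it was B2m and RT1-CE10, 2 of 2 measured, where 31.9% were. Border macrophage-like cells, which carried microglia markers at a median 30.6, 17.3, 23.2 and 21.6% of their microglia-like level, had no member called, where 0.968% of genes were called higher and 2.3% lower. These cells also carried oligodendrocyte markers, at a median 5.53, 13.3, 13.7 and 5.46% of their oligodendrocyte-like level in sets 1 to 4. Their set 4, with 160 of the 270 cells, was the highest set in all 4 members that lay apart, of 5 measured, where 45.4% of genes did. In pericyte-like cells oligodendrocyte markers stood at a median 5.68, 10.7, 3.31 and 2.50% of that level. The part of oligodendrocyte RNA in these values was not tested.

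**Figure D4:**
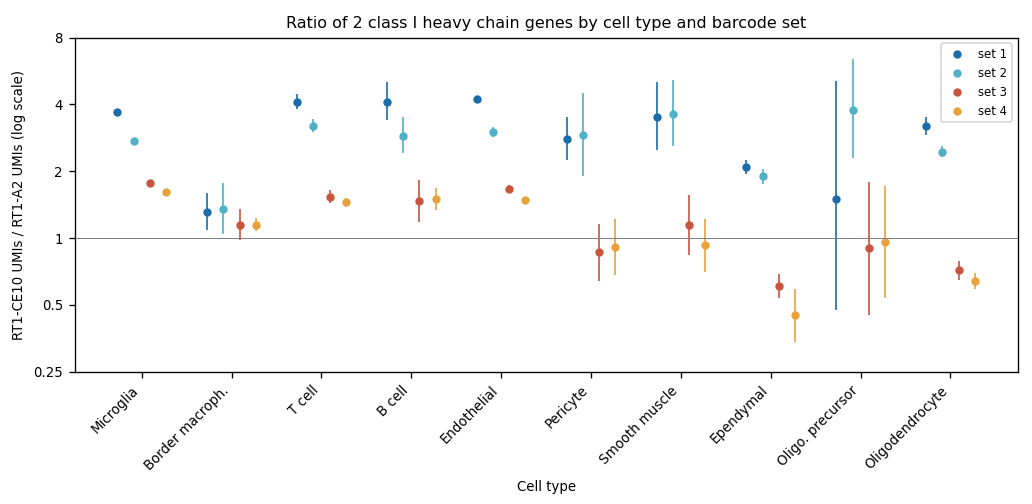
RT1-CE10 UMIs per RT1-A2 UMI (log scale) by cell type and barcode set, with exact 95% intervals. In sets 1 and 2 all 10 types lie above 1, and in sets 3 and 4 only 6 and 5 do.

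The balance between the 2 heavy chains differed between the sets in the same direction in every cell type. RT1-CE10 over RT1-A2 was 3.68, 2.74, 1.78 and 1.61 in microglia-like cells of sets 1 to 4, 4.23, 3.01, 1.66 and 1.49 in endothelial-like and 4.11, 3.21, 1.54 and 1.45 in T cell-like cells. In oligodendrocyte-like cells it was 3.2, 2.45, 0.715 and 0.639. In each of the 10 types both values of sets 1 and 2 were above both values of sets 3 and 4, although the intervals met in border macrophage-like (1.32, 1.36, 1.15 and 1.15) and precursor-like cells. Sets 1 and 2 differed from each other too, and in microglia-like, endothelial-like and T cell-like cells set 1 had the higher ratio with no overlap.

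Another classical heavy chain, RT1-A1, moved against RT1-CE10. Of all UMIs of the 17 heavy chain genes, RT1-A1 took 5.90, 6.74, 16.4 and 17.1% in microglia-like, 4.83, 5.68, 13.5 and 14.1% in endothelial-like and 6.96, 8.62, 17.0 and 17.3% in T cell-like cells. RT1-CE10 took 53.8, 50.5, 33.7 and 33.0%, 41.5, 40.0, 26.0 and 25.2% and 43.9, 42.8, 26.5 and 26.6%. Over the 10 types the RT1-A1 share was 2.94% to 11.1% in set 1, 4.89% to 10.3% in set 2, 13.1% to 18.2% in set 3 and 14.1% to 19.7% in set 4, so that the types of sets 1 and 2 lay below those of sets 3 and 4. RT1-CE4, a further chain, had 1412, 1426, 1419 and 1520.0 CPM in endothelial-like cells, where its sets lay 1.08-fold apart. RT1-N2, at 44.7, 44.0, 7.86 and 9.24 CPM in microglia-like cells, was 5.69-fold apart. All of these are paralogs counted against 1 reference, and differences in how well an animal's RT1 sequences match that reference cannot be told apart from differences in transcript level here.

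No type here is known to lack class I, so oligodendrocyte-like cells, low in every member, serve as the comparison for shares. Shares of cells with at least 1 UMI depend on depth, so cells were also thinned to 1000 UMIs each. At the median depths of 4780 UMIs in microglia-like and 5583 in oligodendrocyte-like cells, B2m was found in 99.5% and 83.0% of cells over all sets. After thinning the shares in sets 1 to 4 were 99.6, 99.3, 98.9 and 99.0% against 42.4, 41.6, 25.3 and 29.6%. For RT1-CE10 the thinned shares were 98.5, 98.2, 87.9 and 86.6% in microglia-like, 90.3, 89.6, 72.8 and 73.0% in endothelial-like and 22.4, 24.6, 5.24 and 6.11% in oligodendrocyte-like cells, against unthinned shares of 98.1%, 93.1% and 46.8%. Psmb9 was found in 37.5, 46.6, 40.5 and 43.8% of thinned T cell-like, 18.7, 22.0, 20.4 and 21.8% of endothelial-like and 1.87, 2.27, 0.279 and 0.306% of oligodendrocyte-like cells, and unthinned in 80.8%, 55.1% and 4.44%. In each set the share of all 8 members was lower in oligodendrocyte-like cells than in both microglia-like and endothelial-like cells, unthinned and thinned. Oligodendrocyte-like cells were chosen for their low level in these same counts, so their lower shares are no separate support for it. The share of all genes with that pattern is not given here. Thinning left out 826 microglia-like, 399 endothelial-like and 166 oligodendrocyte-like cells with fewer UMIs.

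**Figure D5:**
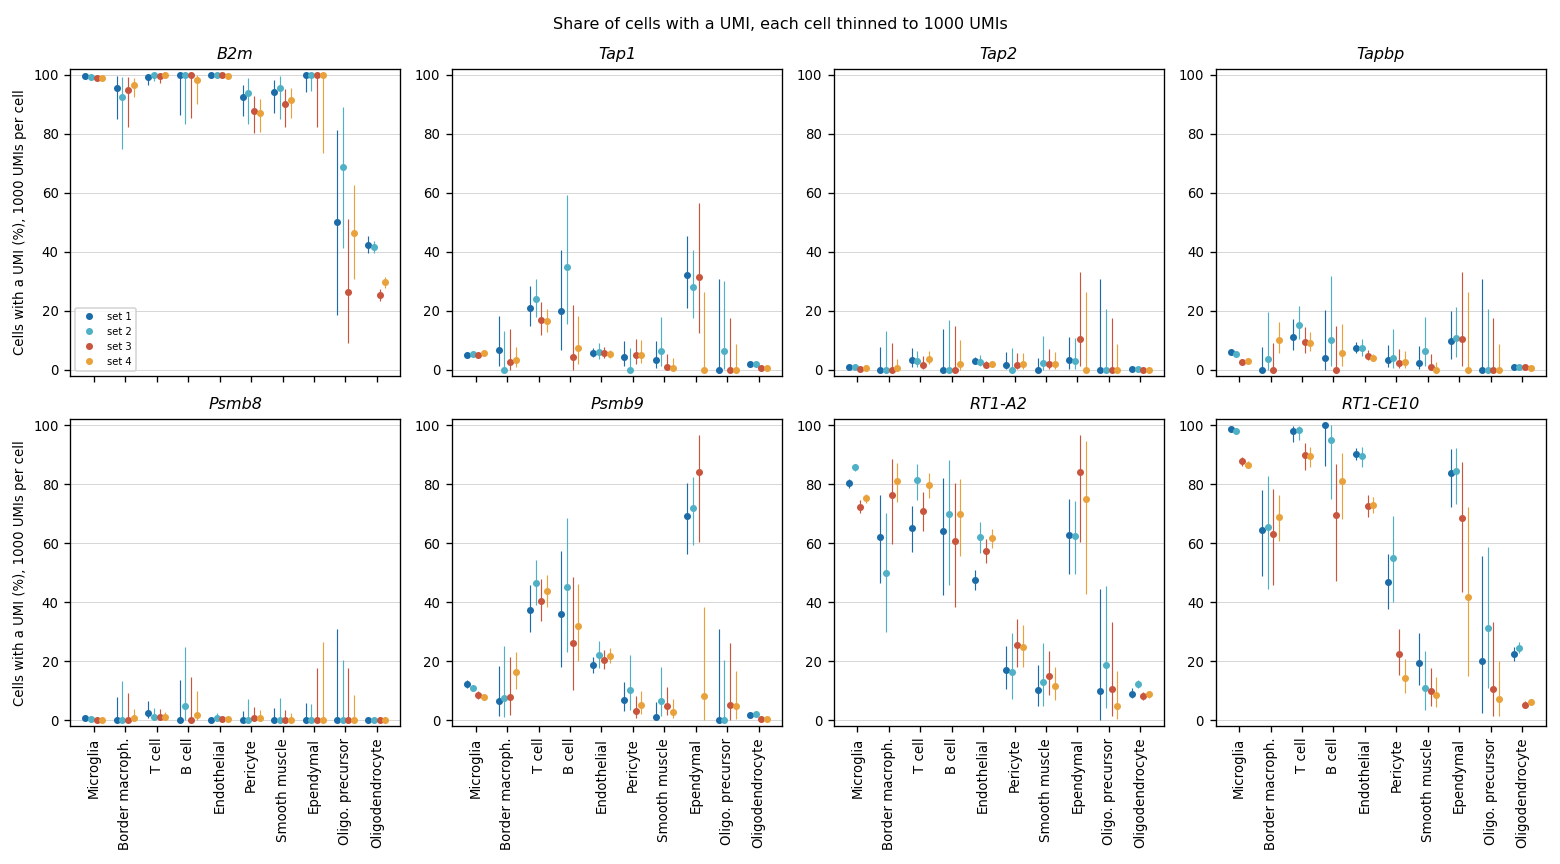
Share of cells with at least 1 UMI of each gene (%), each cell thinned to 1000 UMIs, by cell type and barcode set with exact binomial 95% intervals. B2m lies above 85% in 8 types and between 25.3% and 42.4% in oligodendrocyte-like cells.

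Of the other class I heavy chains, 15 of 26 listed were in the gene list and 12 were measured. In oligodendrocyte-like cells 12 of 12 were called lower (25.9% of all genes), in T cell-like cells 7 higher (5.56%), in microglia-like cells 4 higher (9.34%) and in endothelial-like cells 3 higher (10.3%). Their median log2 ratios were -5.07 (-4.93 with zeros at a count of 3), 1.38, 1.02 and 0.69. RT1-CE1 led in microglia-like cells (2.43, on 4.18, 3.89, 2.94 and 2.10 CPM) and RT1-T24-3 in endothelial-like cells (3.34, 748, 611, 534 and 557 CPM). Hfe, a class I-like protein of iron control that pairs with B2m, was higher in endothelial-like (3.14) and lower in oligodendrocyte-like cells (-6.17). Of the 4 B2m-binding class I-like genes, 2 were higher in endothelial-like and 3 lower in oligodendrocyte-like cells, against the same shares of all genes.

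Among proteasome genes, the activator subunit Psme1 was lower in oligodendrocyte-like cells (-3.64, 62.5, 65.8, 24.0 and 25.7 CPM). It was 1 of the 3 activator and immunoproteasome genes, not far from the 25.9% of all genes called lower in oligodendrocyte-like cells. The constitutive Psmb5 was higher there (1.34), 1 of 3, where 17% of all genes were. In microglia-like cells 2 of 3, Psmb5 (-1.61) and Psmb6 (-1.24), were lower, where 32% of all genes were and the all-gene median was -0.69. In T cell-like cells Psme1 (1.35) and Psme2 (1.59) were higher, 2 of 3 activator and immunoproteasome genes, where 5.56% of all genes were. Of 5 measured genes for loading and trimming in the endoplasmic reticulum, 2 were lower in oligodendrocyte-like cells, not far from the 25.9% of all genes, led by the tapasin homologue Tapbpl (-4.43), and none was called in microglia-like or endothelial-like cells. Canx, which encodes the chaperone calnexin, had 0.54 in oligodendrocyte-like cells and was not called.

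Among 12 measured interferon receptor and regulator genes, 10 were lower and none higher in oligodendrocyte-like cells, where 25.9% of all genes were lower and 17% higher. Ifngr1, a chain of the interferon gamma receptor, stood at 692, 804, 716 and 778 CPM in microglia-like cells (3.67, called higher), 191, 204, 125 and 137 in endothelial-like cells (-1.27, called lower) and 23.6, 32.3, 20.9 and 23.5 in oligodendrocyte-like cells. Irf7, a regulator of the type I interferon response, was 119, 81.8, 38.1 and 34.1 CPM in endothelial-like cells (4.04, higher) and 15.8, 6.82, 1.38 and 1.15 in microglia-like cells (-2.29, lower), high in sets 1 and 2 in both. In microglia-like cells 2 genes of this list were higher and 1 lower, where 9.34% and 32% of all genes were. In endothelial-like cells 3 were higher and 1 lower (10.3% and 15.6% of all genes), and in T cell-like cells 3 higher and 2 lower (5.56% and 13.5%). In oligodendrocyte-like cells Irf1, a transcription factor of interferon responses, stood at 18.2, 22.6, 6.67 and 9.36 CPM, higher in sets 1 and 2, as Tap1 and Psmb9 were.

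Over the 10 cell types, with sets summed, levels of the members rose and fell together on the log2(CPM + 5) scale. The Pearson r was 0.985 for RT1-CE10 with RT1-A2 and 0.968 for Tap1 with Psmb9, and 0.60 for RT1-A2 with Tap2, the lowest of the 28 pairs. These are descriptions over 10 points that share libraries and a few types with very low values. Of 13857 other genes the nearest to the members' mean profile were Gbp7 (r = 0.970), a guanylate-binding protein gene induced by interferon, Nmi (0.954), Hnrnpf (0.953), Cd274 (0.944), which encodes the checkpoint ligand PD-L1, and Mx1 (0.928), an antiviral interferon target. Gbp7 ran from 0.442 CPM in oligodendrocyte-like to 111 in ependymal-like cells, and Cd274 from 1.35 to 81.6 CPM in T cell-like cells.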

How the data were processed

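The data were the deposited UMI counts of 1 pooled matrix, whole numbers that the authors left unscaled. Cell Ranger 5.0.0 wrote the matrix, per the file headers, and the submitters' processing notes list Cell Ranger, STAR and Rnor_6.0. The labels' protocols describe enzymatic dissociation, lysis of red cells and a 10x Genomics 3' library kit. Which annotation and strand setting were used, and what became of reads shared by RT1 paralogs, is not given in the sources used here.

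Cells were kept with at least 500 UMIs, 300 genes and at most 20% mitochondrial UMIs, doublets were removed with Scrublet in each set at an expected 6%, and 6343, 7982, 5186 and 8426 cells remained in sets 1 to 4. Clustering used 2000 variable genes chosen without the members and the 6 partner lists, 30 components, 15 neighbours and Leiden resolution 2 (scanpy 1.11.5, igraph 0.11.9, Python 3.11.15), with no alignment of sets. Clusters were named from 22 marker lists where at least 3 markers and 33% of a list were enriched (25% of cells, log2 ratio of 1 with 5 CPM added). A cluster whose best list had no marker among its 10 leading genes took the passing list with most markers there. A cluster stayed unnamed where markers of an unrelated type led or stood at 10% or more of their own level. Related types were exempt from that rule. They were microglia with border macrophages, monocytes and dendritic cells, T with NK cells, the oligodendrocyte lineage, and mural cells with fibroblasts. Neurons with neuroblasts, ependymal with choroid plexus cells and astrocytes, and astrocytes with oligodendrocyte precursors were exempt too. The dividing list was exempt with every type. The naming thresholds were set with the data in view, and clusters that took 1 name were pooled.

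UMIs were summed per type and set and divided by the total (CPM, per 1e+06 UMIs), with exact Poisson, binomial (Clopper-Pearson) and conditional binomial 95% intervals (scipy 1.17.1). A list was described by its counts and median. TMM factors came from edgeR 4.0.16 on R 4.3.3. Cells were thinned to 1000 UMIs at random with a fixed seed. The calling procedure was tested on simulated counts. All 8 members were named in every type. Partner genes were named at the extremes of each list in the 3 large types, and the 5 genes most like the members by Pearson r, and the further genes named were chosen after their values were seen. The members, lists and tests were chosen with earlier results of these data known. Alternatives were TMM scaling, other UMI minimums, a stricter cell filter (1000 UMIs, 10% mitochondrial), doublets kept, resolution 1, a marker gate per cell, mean per-cell CPM, thinning, other references and leaving out each set. Promoter windows came from RefSeq tables of the build GRCr8, and symbols linked them to the counts, which use another build. The patterns GAAANNGAA and GGGNNTTNC were shortened by 1 base after a first search, which raised their share among all windows.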

Additional observations from a re-analysis of the deposited data

Results flagged for a closer look

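The following values come from cells outside the named types, which no comparison above used, and each was above the limit that a count of 0 allows. Summed CPM of the 8 members was 10997 in cluster 21, led by the division genes Mki67 and Top2a, and 9356.58 in cluster 23, led by the haemoglobin genes Hbb and Hba-a2. It was 10901.2 in cluster 24, whose leading genes include Igh-6, 11735.6 in cluster 26, led by the neutrophil genes S100a9 and S100a8, and 13727.8 in cluster 33, led by Fcnb. Cluster 31, led by Rgs5 and Higd1b, had 11552.8, and cluster 35, led by Igfbp2, Dcn and Col1a1, had 8230.68. Cluster 27, led by Cxcl13, Ubd and Il1rn, had 25271.3 from 77 cells, of which 43, 32, 2 and 0 came from sets 1 to 4. That is above the highest named cluster, cluster 25 at 21192.4, and its RT1-CE10 was 8276 CPM and its B2m 13935. The lowest named cluster had 457.3.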

How the results depend on the processing

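Of the counts of members, 102 values under alternatives stayed within 1.5 times the count reported and 10 did not. The 8 lower in oligodendrocyte-like cells became 7 in thinned cells and with the median of types as reference, and the lower share of positive cells held for 8 of 8 in all settings run. Those cells were chosen for the shares because they were low in these counts, so the share result is no separate support. The share of all genes with that pattern is not given, so this count cannot be read as particular to the members. The 2 higher in endothelial-like cells became 0 with the stricter filter, without oligodendrocyte-like cells in the reference and with microglia-like cells as the reference. The 2 higher in microglia-like cells became 0 with the median of types as reference and without oligodendrocyte-like cells. The 5 higher in T cell-like cells became 3 in thinned cells. Endothelial-like members apart between sets went from 0 to 2 (TMM scaling), 2 (stricter filter) and 1 (thinned cells). Tap2 in microglia-like cells changed sign, to -1.43 without oligodendrocyte-like cells in the reference, and the other references use fewer cells by construction. The cause of the other changes was not tested. Leaving out each set in turn gave 5 to 6 (T cell-like), 2 to 3 (endothelial-like), 2 to 2 (microglia-like) and 8 to 8 (oligodendrocyte-like) members called, 1 to 3, 4 to 4 and 0 to 0 apart between sets in microglia-like, oligodendrocyte-like and endothelial-like cells, and 8 to 8 for the shares. For single genes, 400 values stayed as reported, 101 moved, 15 lost a call, 6 gained 1 and 1 changed sign. References without oligodendrocyte-like cells, microglia-like cells as the reference and dropping doubtful clusters were chosen after seeing the data. Depth limits Psmb8 and Tap2 most, and the small types. No paired analysis was possible because the columns carry no replicate numbers and no set is tied to a titled sample.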
